A study of Rattus norvegicus with 3 samples.

Results

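The nuclear genes of oxidative phosphorylation were followed through dexamethasone treatment of neonatal rat ventricular myocytes. Members were taken by symbol: every row of the deposited expression table that starts with Nduf, Uqcr, Cox4, Cox5, Cox6, Cox7, Cox8 or Atp5, or that is Sdha, Sdhb, Sdhc, Sdhd or Cyc1. This gave 88 of 17450 rows, with 87 distinct symbols because Atp5f1 stands on 2 rows. By complex these were 41 rows for complex I, 4 for complex II, 9 for complex III, 16 for complex IV and 18 for ATP synthase, complex V. Complexes were assigned by symbol, so Ndufa4 is counted throughout as an accessory subunit of complex I. Not every row is a subunit. By symbol 78 rows were counted as subunits, among them Cox7a2l and both Atp5f1 rows. The other 10 are 6 complex I assembly factors of the Ndufaf series, the paralog Ndufa4l2, the pseudogene Cox6c-ps1, and Atp5s and Atp5sl. No row of the table lay on the mitochondrial chromosome, so the subunits encoded by mitochondrial DNA were not analysed here.

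The cells came from 1 day old Sprague Dawley pups. They were enriched for cardiomyocytes by a Percoll gradient and by preplating, steps meant to remove other cell types, and serum was withdrawn 1 day after plating. RNA was taken from a culture given the ethanol vehicle and from cultures given 100 nM dexamethasone, a synthetic glucocorticoid, for 1 h or 24 h. The labels give 1 sample per group, their titles speak of 2 libraries each, and the deposited table holds 1 value per gene and group, so no spread between replicates could be computed. The control has no stated time and serves both dexamethasone times, so the effect of dexamethasone and that of longer culture cannot be told apart at 24 h.

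The respiratory chain passes electrons from NADH through complex I, or from succinate through complex II, to ubiquinone, then through complex III and cytochrome c to complex IV, which reduces oxygen. Complexes I, III and IV pump protons across the inner mitochondrial membrane, and ATP synthase uses the return flow to make ATP. Heart muscle depends on this pathway for most of its ATP, and several complex IV subunits exist as a heart and muscle isoform beside an isoform found in most tissues.

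Levels are FPKM, sequenced fragments scaled to transcript length and to library size, as deposited by the authors. The library depth behind them is unknown. Members were among the abundant transcripts of these cells: 69 of 88 reached 100 FPKM in the control, compared with 958 of all 17450 rows. Their summed FPKM was 31437 in the control, 31376 at 1 h and 30427 at 24 h. That sum was 4.82%, 4.87% and 4.62% of the FPKM of all rows, so the share taken by the pathway was lowest at 24 h by a small margin.

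Among subunits, complex IV had the highest median level in the control, 719 FPKM over 15 rows, followed by ATP synthase with 559 FPKM over 16 rows. Complex III followed with 229 FPKM over 9 rows, complex I with 169 FPKM over 34 rows and complex II with 162 FPKM over 4 rows. The ranges of complexes I and II overlapped, and so did those of complexes IV and V, so neighbours in this order do not separate row by row. The 6 complex I assembly factors had a median of 12.6 FPKM, well under every group of subunits.

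**Figure D1:**
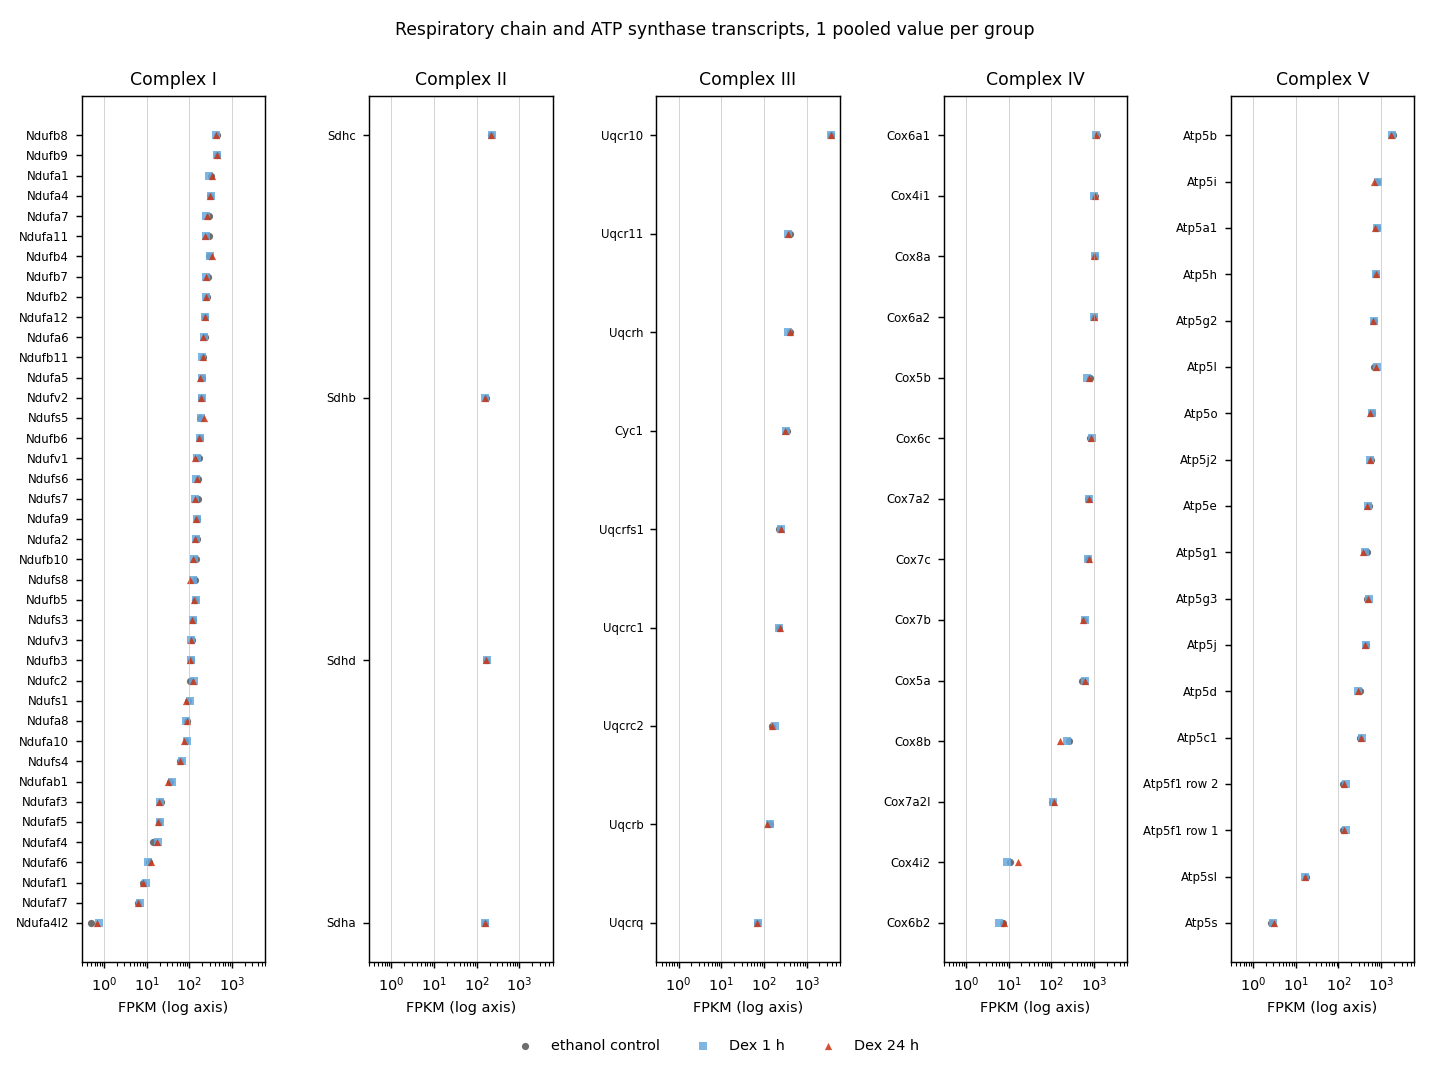
FPKM on a log axis for members above 0 in every group, with 1 complex I gene not shown, 1 row per gene and 1 panel per complex, ordered by control level. The circle is the ethanol control, the square 1 h and the triangle 24 h of dexamethasone. The 3 marks of a gene nearly coincide, and Cox8b, Cox4i2 and Ndufa4l2 show the widest spacing.

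The highest member was Uqcr10, a small subunit of complex III, listed at 3655 FPKM in the control, 3797 at 1 h and 3746 at 24 h. Its locus spans only 181 bases, a length at which FPKM is easily inflated. Atp5b, the catalytic beta subunit of ATP synthase, was next at 1858, 1839 and 1671 FPKM. The highest complex IV member was Cox6a1 at 1213, 1143 and 1100 FPKM. Complex I and II members peaked lower, with Ndufb8 at 448, 420 and 424 FPKM and Sdhc, a membrane anchor of succinate dehydrogenase, at 217, 224 and 220 FPKM.

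Of the 88 rows, 86 were tested by the authors in each comparison. Cox6c-ps1 was listed at 0 in all 3 groups, and Cox8c, a testis isoform, was listed at 0.0329 FPKM in the control and at 0 in both dexamethasone groups. Another 11 rows share a locus or symbol with another row, and their values are uncertain: both Atp5f1 rows, Atp5j, Atp5j2, Ndufa2, Ndufa10, Ndufs3, Uqcrb, Cox7a2, Cox7b and Cox7c. The values of the Atp5f1 rows were close, 128 and 126 FPKM in the control, 150 and 147 at 1 h, and 134 and 133 at 24 h.

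In the authors' deposited table no member was marked as significant, a mark given at a q-value of at most 0.05, in any of the 3 comparisons. The background was 0.863% of 11582 genes tested at 1 h over control, 6.22% of 11673 at 24 h over control, and 4.92% of 11641 at 24 h over 1 h. Beside these shares of all tested genes, 0 of 86 was lower at 24 h and says little at 1 h. Among genes of at least 10 FPKM in both groups the marked shares were lower, 0.569%, 3.67% and 2.69%. With at least 100 FPKM in both groups, 24 of 898 genes were marked higher and 5 lower at 24 h. Members at that level had 0 of 69, which says little beside so low a share. In the authors' deposited table an unadjusted p under 0.05 was reached by 0 members at 1 h, 2 at 24 h, and 2 at 24 h over 1 h. Over all tested genes that share was 2.76%, 14.3% and 12.4%.

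After 1 h of dexamethasone the members lay close to their control level. The median log2 fold of the 86 tested rows was −0.02, or 0.00 with FPKM rescaled to equal totals, with 40 above and 46 below the control. All tested genes had a median of −0.00, with 50.8% below. The standard deviation of the fold across rows was 0.149 for members and 0.281 for all tested genes. By complex the median was −0.03 for I, 0.00 for II, −0.03 for III, −0.02 for IV and 0.01 for V.

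A difference of more than 0.32 on the log2 scale was used as a size limit. At 1 h 3 members lay past it on the higher side and 0 on the lower side, against 7.15% and 5.22% of all tested genes. Ndufa4l2, a paralog of Ndufa4 known for its induction by hypoxia, was at 0.507 FPKM in the control and 0.744 at 1 h, a log2 fold of 0.55 ± 0.74 (SE). Ndufaf4, a complex I assembly factor, was at 14.0 and 18.2 FPKM, a log2 fold of 0.38 ± 0.33. Ndufc2, an accessory subunit of complex I, was at 102 and 130 FPKM, a log2 fold of 0.34 ± 0.32. The 3 lowest log2 folds at 1 h, all inside the limit, were −0.27 ± 0.51 for Cox6b2, −0.23 ± 0.31 for Cox5b and −0.23 ± 0.31 for Ndufa7. The SE is taken from the authors' test statistic. It is wider than the deposited p-values imply, because in the median gene at 1 h the p corresponds to a normal deviate 1.42 times that statistic. Each of these folds is close to or below 1 SE, and Ndufa4l2 is barely detected.

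At 24 h more members lay below the control than above it. The median log2 fold was −0.06, with 32 rows above and 54 below, so 62.8% were lower, compared with 50.5% of all tested genes. The median of all tested genes was −0.00. Restricted to at least 10 FPKM in both groups, 54 of 81 members were lower, with a median of −0.06, compared with 49.9% of all such genes and a median of 0.00. No error could be given for these medians, since each group has 1 sample. A single member row had a median SE of 0.311 on the log2 scale. Members also varied less among themselves than other genes did, with a standard deviation of 0.182 compared with 0.617 over all tested genes, or 0.176 compared with 0.317 above 10 FPKM. Past 0.32 on the log2 scale lay 2 members on the higher side, Cox4i2 and Ndufa4l2, and 4 on the lower side, Cox8b, Ndufs8, Ndufa11 and Atp5g1, against 16.6% and 13.8% of all tested genes.

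**Figure D2:**
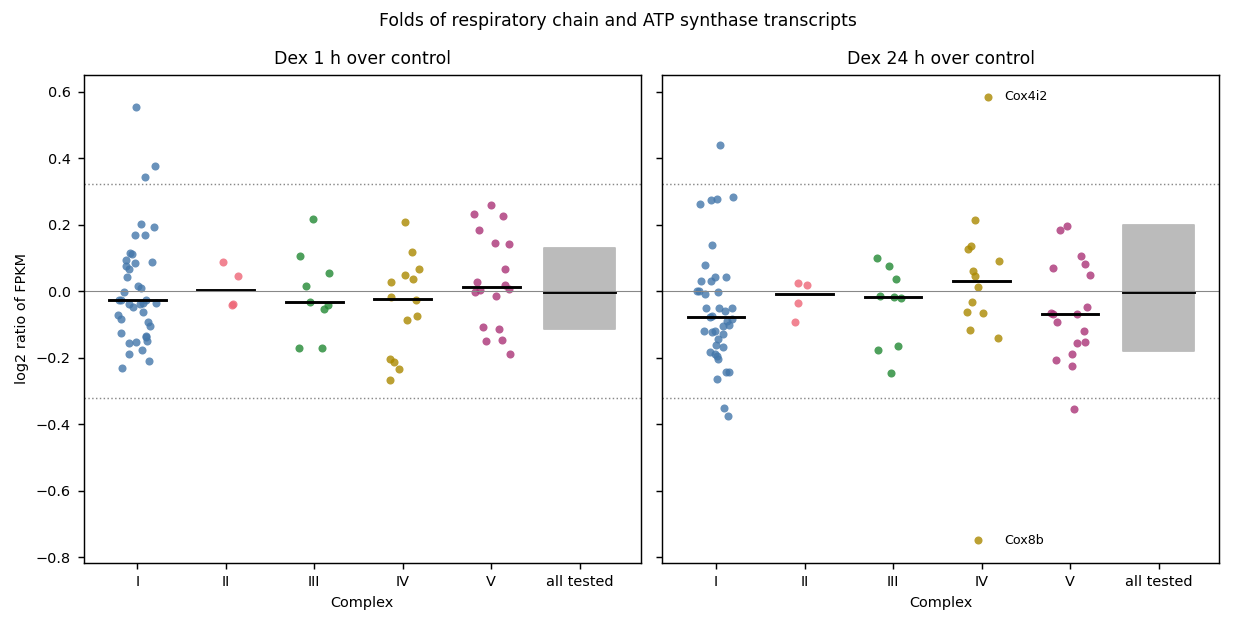
Log2 ratio of FPKM over the ethanol control for each tested member, by complex, at 1 h and 24 h of dexamethasone. Black lines are medians, the grey box spans the quartiles of all tested genes, and dotted lines mark 0.32 above and below 0. Nearly all points lie between the dotted lines, with Cox8b at −0.75 and Cox4i2 at 0.58 farthest out at 24 h.

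Complex I takes electrons from NADH through its core subunits, which hold the flavin and the iron-sulfur clusters, while accessory subunits surround that core. All 7 nuclear core subunits in the table were lower at 24 h than in the control, with a median log2 fold of −0.14 and a range of −0.38 to −0.05. Their summed FPKM at 24 h was 0.895 of the control. Of the 27 accessory subunits 19 were lower and 8 higher, with a median of −0.08. The 6 assembly factors had 4 higher and 2 lower, with a median of 0.02.

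Ndufs8, a core subunit that carries iron-sulfur clusters, was lowest of complex I at 24 h, at 134 FPKM in the control, 121 at 1 h and 103 at 24 h. Its log2 fold at 24 h was −0.38 ± 0.32, with p = 0.088 and q = 0.700 in the authors' deposited table. Ndufv1, the NADH-binding subunit, was at 164, 149 and 139 FPKM, a log2 fold of −0.24 ± 0.31. Ndufs7, which holds the cluster nearest to ubiquinone, was at 158, 138 and 133 FPKM, a log2 fold of −0.24 ± 0.32. The 3 genes had their highest value in the control and their lowest at 24 h, and no single fold passed the authors' test.

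Other core subunits were nearer the control. Ndufs1, the largest subunit of the core, was at 94.0, 102 and 85.2 FPKM, so its 1 h value was the highest. Ndufv2, which carries an iron-sulfur cluster beside the NADH site, was at 189, 199 and 182 FPKM. Among accessory subunits the extremes at 24 h were Ndufa11, at 288, 249 and 226 FPKM with a log2 fold of −0.35 ± 0.31, and Ndufs5, at 176, 188 and 215 FPKM with a log2 fold of 0.28 ± 0.32. Ndufb4, another accessory subunit, was at 283, 307 and 343 FPKM, a log2 fold of 0.27 ± 0.31.

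Complex II, succinate dehydrogenase, also serves the citric acid cycle. Its 4 subunits stayed nearest to the control, with a median log2 fold of −0.01 at 24 h and a range of −0.09 to 0.03. Sdha, the flavoprotein, was at 160 FPKM in the control, 156 at 1 h and 156 at 24 h. By 24 h fold, Sdhb, the iron-sulfur subunit, was lowest, with levels of 162, 158 and 153 FPKM. The anchor Sdhd had the highest 24 h fold, with levels of 162, 173 and 165 FPKM. In summed FPKM complex II at 24 h was 0.988 of the control.

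Complex III passes electrons from ubiquinol to cytochrome c. Its 9 rows had a median log2 fold of −0.02 at 24 h, with 3 higher and 6 lower, and a summed FPKM of 1.001 of the control. Without Uqcr10, which holds the greater share of that sum, it was 0.957. Of the subunits that carry electrons, Cyc1, cytochrome c1, was at 342 FPKM in the control, 330 at 1 h and 305 at 24 h, a log2 fold of −0.17 ± 0.30. The Rieske iron-sulfur protein Uqcrfs1 was highest of the complex by fold, at 229, 247 and 246 FPKM with a log2 fold of 0.10 ± 0.30. Uqcrb, one of the rows with a shared locus or symbol, was lowest at 140, 136 and 118 FPKM with a log2 fold of −0.24 ± 0.44. These electron carriers lay on opposite sides of the control, each within its SE.

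Complex IV, cytochrome c oxidase, was the complex with the widest range at 24 h, from −0.75 to 0.58, around a median of 0.03 with 8 rows higher and 6 lower. Both ends of that range are tissue isoforms. Of the isoforms found in most tissues, Cox4i1 had a log2 fold of 0.01, Cox8a of −0.06 and Cox6a1 of −0.14 at 24 h.

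Cox8b, the heart and skeletal muscle isoform of the small subunit VIII, was at 265 FPKM in the control, 230 at 1 h and 158 at 24 h. Its log2 fold was −0.20 ± 0.33 at 1 h and −0.75 ± 0.33 at 24 h, the lowest of all 86 members. In the authors' deposited table the 24 h value had p = 0.0024 and q = 0.0574, just outside the mark. Adjusted within the 24 h comparison alone, that deposited p gave q = 0.0376, inside it. For 24 h over 1 h the authors' deposited table gave p = 0.0232 and q = 0.312, at a log2 fold of −0.54 ± 0.34. Its partner Cox8a was at 1057, 1038 and 1013 FPKM, a log2 fold of −0.06 ± 0.30 at 24 h. Cox8b made up 20.05% of the FPKM of the pair in the control, 18.2% at 1 h and 13.5% at 24 h, a lower share at each later time.

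Cox4i2, an isoform of subunit IV best known from lung and from low oxygen, lay at the other end. It was at 10.9 FPKM in the control, 9.42 at 1 h and 16.4 at 24 h. Its log2 fold at 24 h was 0.58 ± 0.40, with p = 0.0384 and q = 0.433 in the authors' deposited table. Against 1 h the log2 fold was 0.80 ± 0.41, with p = 0.0056 and q = 0.110 in the authors' deposited table. Cox4i1 was at 1066, 1012 and 1076 FPKM, so Cox4i2 held only 1.01%, 0.922% and 1.498% of the pair. The gene was thus a minor isoform at each time.

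The heart and muscle isoform Cox6a2 did not share the path of Cox8b. It was at 1012 FPKM in the control, 999 at 1 h and 990 at 24 h, a log2 fold of −0.03 ± 0.31 at 24 h. Cox6a1, the isoform of most tissues, was at 1213, 1143 and 1100 FPKM. Cox6a2 therefore held 45.5%, 46.6% and 47.4% of the pair. Cox7a1, Cox6b1 and Cox7b2 had no row under those symbols, so isoforms of these subunits could not be compared. Ndufa4, now placed in complex IV in mammals but counted here with complex I, was at 299, 317 and 306 FPKM. Its paralog Ndufa4l2 held 0.169%, 0.234% and 0.224% of the FPKM of that pair. Among the remaining subunits Cox5a was at 540, 624 and 627 FPKM, and Cox5b at 828, 703 and 763 FPKM.

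**Figure D3:**
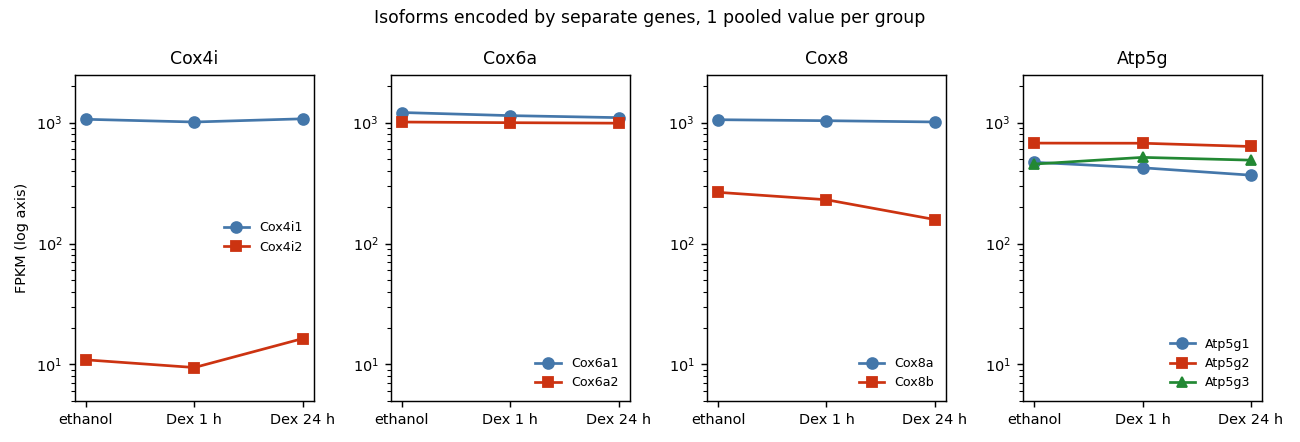
FPKM on a log axis of isoforms encoded by separate genes, for subunits IV (Cox4i), VIa (Cox6a) and VIII (Cox8) of complex IV and subunit c (Atp5g) of ATP synthase. Points are the 1 value of each group and lines join values of the same gene. Cox8b goes from 265 to 158 FPKM beside a level Cox8a, and Cox4i2 from 10.9 to 16.4 FPKM far under Cox4i1.

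The proximal promoters of the subunit VIII isoforms are shown because these paralogs parted at 24 h. They are the 250 bases before the gene start, from RefSeq on build GRCr8, written 5′ to 3′ along the gene's strand; Cox8b lies at chr1:205408274-205408523 and Cox8a at chr1:213833624-213833873, both on the minus strand. Capitals mark matches to 2 of the motifs described further on, GGGCGG (Sp1) in Cox8b and CCGGAAG (ETS factors) in Cox8a, here read on the opposite strand.
Cox8b: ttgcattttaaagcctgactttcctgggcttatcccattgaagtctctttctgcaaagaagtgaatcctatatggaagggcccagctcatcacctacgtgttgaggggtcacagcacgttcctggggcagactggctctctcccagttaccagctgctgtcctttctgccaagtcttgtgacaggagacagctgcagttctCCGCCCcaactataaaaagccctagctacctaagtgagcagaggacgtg
Cox8a: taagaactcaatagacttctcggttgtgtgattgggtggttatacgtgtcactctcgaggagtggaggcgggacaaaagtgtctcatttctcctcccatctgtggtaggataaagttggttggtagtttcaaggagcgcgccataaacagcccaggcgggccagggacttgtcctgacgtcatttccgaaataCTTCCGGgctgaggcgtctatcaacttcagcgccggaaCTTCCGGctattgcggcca
The Cox8b promoter has 1 Sp1 match and the Cox8a promoter 2 ETS matches. Neither holds a match to the glucocorticoid response element searched. That element was in only 0.229% of the promoters of tested genes, so its absence here says little. Of those promoters 59.0% hold the Sp1 motif and 15.4% the ETS motif, and whether these motifs bear on the folds was not tested.

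ATP synthase consists of the catalytic F1 head, the Fo rotor with its ring of c subunits, and a stalk that joins them. At 24 h the 18 rows had a median log2 fold of −0.07, with 6 higher and 12 lower. The 6 higher include both rows of the gene Atp5f1. The 5 F1 subunits had a median of −0.15, with 1 higher and 4 lower, and a summed FPKM of 0.902 of the control. Atp5a1 and Atp5b, the alpha and beta subunits that form the catalytic sites, had nearly equal folds. Atp5a1 was at 779 FPKM in the control, 782 at 1 h and 699 at 24 h, a log2 fold of −0.15 ± 0.30. Atp5b, given above, had a log2 fold of −0.15 ± 0.31. Atp5c1, the gamma subunit of the central shaft, was the exception at 322, 356 and 334 FPKM.

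The 11 stalk and Fo rows had 4 higher and 7 lower, with a median of −0.06. Both Atp5f1 rows are among the 4 higher, so that gene is counted on each of its rows. Subunit c is encoded by 3 genes whose mature proteins are the same. Atp5g1 was at 470 FPKM in the control, 423 at 1 h and 368 at 24 h, a log2 fold of −0.35 ± 0.31 with p = 0.101 and q = 0.747 at 24 h in the authors' deposited table. Atp5g2 was at 677, 676 and 635 FPKM, and Atp5g3 at 454, 516 and 489 FPKM. As shares of the summed FPKM of the 3 genes, Atp5g1 held 29.3%, 26.2% and 24.6%, Atp5g2 42.3%, 41.8% and 42.6%, and Atp5g3 28.4%, 31.95% and 32.8%. The order of Atp5g1 and Atp5g3 thus differed between the control and both dexamethasone groups, while their difference was not tested. Atp5l, subunit g of Fo, had the highest fold of the complex at 673, 806 and 771 FPKM, a log2 fold of 0.20 ± 0.31 at 24 h.

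Between 1 h and 24 h of dexamethasone, where both groups were treated, 25 members were higher at 24 h and 61 lower, or 70.9% lower, with a median log2 fold of −0.05. Of all tested genes 52% were lower, with a median of −0.01. Complex I had 11 higher and 30 lower with a median of −0.08, and ATP synthase 3 higher and 15 lower with a median of −0.09. The 15 lower include both Atp5f1 rows. All 5 F1 subunits were lower at 24 h than at 1 h. Complex IV had a median of 0.01. This comparison shares the 24 h sample with the one against the control, so it is no separate sign of direction.

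The deposited data also hold regions bound by the glucocorticoid receptor, the transcription factor that dexamethasone activates, from a chromatin immunoprecipitation experiment whose headers name a dexamethasone and a DMSO sample. The authors joined 8514 regions to genes. Of the 87 member symbols 45 had a region, 51.7% (exact binomial 95% interval 40.8 to 62.6), or 52.9% of the 85 tested symbols. The shares with a region were 46.3% of all tested genes, 54.4% of those with at least 10 FPKM in the control and 62.0% of those with at least 100 FPKM. Within 1 kb of the gene start 32 members had a region, 36.8% (26.7 to 47.8) or 37.65% of the tested symbols, compared with 27.7%, 35.5% and 43.5%. The members' shares lay above those of all tested genes and below those of genes with at least 100 FPKM, a level that 69 of the 88 member rows reached. These intervals cover counting error only.

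By complex, regions within 1 kb stood at 18 of 41 complex I symbols, 0 of 4 of complex II, 4 of 9 of complex III, 6 of 16 of complex IV and 4 of 17 of ATP synthase. The 56 member regions had a median height of 19.1, in the authors' units of average signal, compared with 20.9 for all regions. Their median log2 ratio of dexamethasone over DMSO was 1.76, compared with 2.42. A CpG island lay in 83.9% of them and in 49.9% of all regions. Within 1 kb of a start the shares were 93.8% for members and 93.3% for all, and beyond 1 kb they were 70.8% and 30.5%. In the same order, the median log2 ratios were 1.575 and 1.846 within 1 kb, and 2.349 and 2.784 beyond it. The median heights were 19.2 and 19.7 within 1 kb, and 18.7 and 21.7 beyond it. Distance was taken for each pair of region and gene. A region beyond 1 kb of 1 gene can therefore lie within 1 kb of another.

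The highest member region, with a height of 51.4, lay 18338 bases downstream of the start of Sdhd, and the next, with 42.8, lay 12029 bases downstream of the start of Uqcrc1, a core protein of complex III. Of those within 1 kb the highest was at Atp5g2, at chr7:142064565-142064976 on build rn5, with a height of 30.2 and a distance of 26 bases from the start. Atp5a1 had a region of height 29.5 at 137 bases and Cox4i1 one of 26.9 at 259 bases. Cox8a had one of 18.9 at 137 bases, with a log2 ratio of 4.04. Ndufs8 had a low one of 14.1, 42 bases upstream. Cox8b and Cox4i2, the members with the farthest folds, had no region, and regions often belong to more than 1 gene.

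Members with a region within 1 kb had a median log2 fold of −0.12 at 24 h, with 9 higher and 23 lower of 32, compared with −0.03, with 23 higher and 31 lower of 54, for those without. At 1 h the medians were −0.02 and −0.02. The difference between the 24 h medians was not tested, and the same split was not made over all tested genes. Of the 32, 18 were of complex I and 4 of ATP synthase, so the groups also differ by complex. The binding data come from another experiment, and whether binding bears on RNA was not tested.

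**Figure D4:**
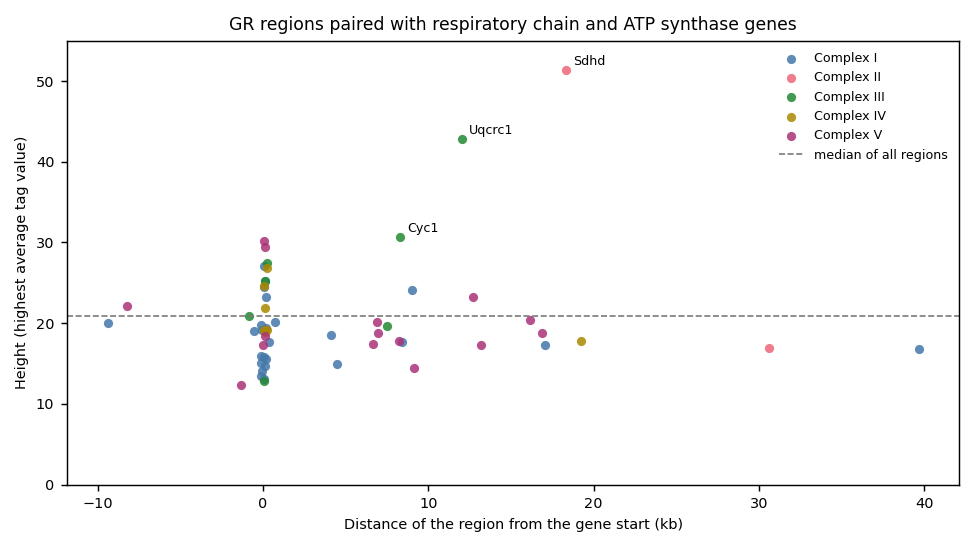
Height of each glucocorticoid receptor region of a member, as the highest average tag value, against its distance in kb from the gene start, coloured by complex. The dashed line is the median height of all regions, 20.9. Many points cluster at the start with heights up to 30.2, and the highest, at Sdhd with 51.4 and Uqcrc1 with 42.8, lie more than 10 kb downstream.

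The promoters of Atp5g2, which has the highest region near a start, of Ndufs8, the lowest core subunit of complex I by fold, and of Cox4i1 are shown for their motifs. Coordinates are on GRCr8, where Atp5g2 is named Atp5mc2: Atp5g2 is at chr7:135678219-135678468 on the minus strand, Ndufs8 at chr1:210573699-210573948 on the minus strand, and Cox4i1 at chr19:65630133-65630382 on the plus strand. Capitals mark a match to the NRF1 motif, GCGCA and GCGC with 1 base between, in Atp5g2, a CCGGAAG match in Ndufs8 on the opposite strand, and 2 GGGCGG matches in Cox4i1, 1 on each strand.
Atp5g2: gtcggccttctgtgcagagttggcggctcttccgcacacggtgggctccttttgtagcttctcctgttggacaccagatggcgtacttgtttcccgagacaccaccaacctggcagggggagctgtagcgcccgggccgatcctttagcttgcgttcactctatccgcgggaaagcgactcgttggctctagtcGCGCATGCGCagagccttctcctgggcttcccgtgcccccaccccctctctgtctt
Ndufs8: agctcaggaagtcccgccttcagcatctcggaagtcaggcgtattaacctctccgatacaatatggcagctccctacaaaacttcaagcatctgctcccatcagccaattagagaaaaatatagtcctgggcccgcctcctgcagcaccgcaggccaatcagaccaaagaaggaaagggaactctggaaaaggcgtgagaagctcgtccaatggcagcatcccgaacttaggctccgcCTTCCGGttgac
Cox4i1: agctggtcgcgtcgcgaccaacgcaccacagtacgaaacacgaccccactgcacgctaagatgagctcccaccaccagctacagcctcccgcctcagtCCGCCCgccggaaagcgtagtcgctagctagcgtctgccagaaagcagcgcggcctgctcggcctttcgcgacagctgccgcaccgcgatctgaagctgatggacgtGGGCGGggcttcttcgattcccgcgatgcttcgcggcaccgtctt
NRF1 and ETS factors are known regulators of nuclear genes for mitochondrial proteins, while Sp1 binds many promoters that lack a TATA box.

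Promoters could be matched for 74 of the 87 member symbols, and 6 motifs were searched on both strands of the 250 bases before the start. The NRF1 motif was in 13, or 17.6%, compared with 4.17% of all 27457 promoters and 9.06% of the 9174 promoters of tested genes. By complex it was in 8 of 37 promoters of complex I, 1 of 4 of complex II, 1 of 6 of complex III, 0 of 12 of complex IV and 3 of 15 of ATP synthase. The ETS motif CCGGAAG was in 19, or 25.7%, compared with 7.74% and 15.4%. It was spread over all 5 complexes, in 7, 2, 3, 3 and 4 promoters.

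The other motifs were rarer in members than in promoters of tested genes, or were found in at most 2 members. GGGCGG was in 28 member promoters, 37.8%, compared with 32.4% of all promoters and 59.0% of those of tested genes. The estrogen-related receptor motif TNAAGGTCA was in 1, that of Atp5g3, or 1.35%, compared with 1.00% of all promoters and 0.458% of those of tested genes. The MEF2 motif, CTA and TAG with 4 bases between, was in 2, those of Cox5b and Cox6a2, or 2.70%, compared with 3.43% and 2.87%. The glucocorticoid response element, GNACA and TGTNC with 3 bases between, was in 0 of 74, compared with 0.364% of all promoters and 0.229% of the promoters of tested genes. A match describes letters in this window only.

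Genes around the complexes were read from lists of the same pathway. Of 15 assembly factors of complex IV and 14 of other complexes, none was marked at 24 h, with median log2 folds of 0.00 and −0.12. Beside the 6.22% marked among all tested genes, 0 in lists of this size says little. Cox17, the copper chaperone of complex IV, was at 128 FPKM in the control, 133 at 1 h and 154 at 24 h. Uqcc2, an assembly factor of complex III, was at 93.5, 81.4 and 70.3 FPKM. Neither passed the authors' test.

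Of 17 genes for electron carriers and coenzyme Q synthesis, 14 were lower and 3 higher at 24 h, with a median of −0.18, and 1 was marked, near the 6.22% of all tested genes. Adck3, an atypical kinase needed for coenzyme Q synthesis, fell from 34.5 FPKM in the control and 30.2 at 1 h to 9.59 at 24 h, a log2 fold of −1.85 ± 0.33 with q = 0.00238 in the authors' deposited table. Cytochrome c, Cycs, stayed at 246, 267 and 242 FPKM. Coq10b, a coenzyme Q binding protein, was at 25.7, 35.2 and 41.4 FPKM, with p = 0.0032 and q = 0.0721 at 24 h in the authors' deposited table.

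The exchange of ADP, ATP and phosphate across the inner membrane held the other marked gene. Of 11 tested genes 1 was marked, with a median log2 fold of 0.15, so this count too is close to what the 6.22% of all tested genes gives. Ckmt2, the mitochondrial creatine kinase of muscle, rose from 5.01 FPKM in the control and 5.49 at 1 h to 39.5 at 24 h, a log2 fold of 2.98 ± 0.38 with q = 0.00238 in the authors' deposited table. Slc25a4, the ADP/ATP carrier of heart and muscle, was at 740, 738 and 1132 FPKM, a log2 fold of 0.61 ± 0.30, with p = 0.0044 and q = 0.0921 in the authors' deposited table.

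Regulators of mitochondrial biogenesis showed no marked gene among 17, with 9 higher, 8 lower and a median of 0.01 at 24 h. Beside the 6.22% marked among all tested genes, 0 of 17 says little. Ppargc1a, the coactivator PGC-1alpha, was at 8.09, 10.2 and 11.1 FPKM, a log2 fold of 0.45 ± 0.34. That was the highest 24 h fold of the list. Tfam, which maintains and transcribes mitochondrial DNA, was at 31.8, 35.6 and 32.1 FPKM, and Esrra, an estrogen-related receptor, at 29.9, 27.3 and 31.9 FPKM. Esrrg, another such receptor, had the lowest 24 h fold, −0.41 ± 0.34, at 10.4, 10.3 and 7.83 FPKM. Ssbp1, the gene of the list with the highest level, was at 53.7, 51.3 and 47.9 FPKM. The citric acid cycle list had 0 of 17 marked, which says as little, and a median of −0.03. Mdh2 was its highest gene at 399, 394 and 366 FPKM.

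A small downward displacement was also present in gene lists outside oxidative phosphorylation. The 72 mitochondrial ribosomal genes had a median log2 fold of −0.09 at 24 h, with 16 higher and 56 lower. The 82 cytosolic ribosomal genes had a median of −0.08, with 18 higher and 64 lower. Neither list held a marked gene at 24 h, compared with 6.22% of all tested genes and 3.67% of those with at least 10 FPKM in both groups.

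The labelled cell type and the genes of other cells were read beside these values. The 10 cardiomyocyte markers had a summed FPKM of 29407 in the control, 28116 at 1 h and 24682 at 24 h. Of these 1 was marked at 24 h, Myl2, the ventricular myosin light chain, which fell from 8776 and 8731 to 2456 FPKM. By count, 7 of the 10 were higher at 24 h and the median log2 fold was 0.10. Summed FPKM in the control, at 1 h and at 24 h was 8625, 8428 and 7348 for fibroblast markers, a sum that counts Col1a2 on 2 near-identical rows. It was 163, 158 and 236 for endothelial markers and 8780, 7634 and 9568 for smooth muscle markers. For macrophage markers it was 123, 130 and 224, with Ptprc at 1.94, 2.46 and 1.21 FPKM and Cd68 at 20.2, 21.5 and 14.7 FPKM lower at 24 h. For erythroid markers it was 90.4, 182 and 194, and the 3 erythroid genes tested at 1 h were already marked higher then. Of all tested genes 0.863% were marked at 1 h and 6.22% at 24 h. At 24 h the marked genes of these lists, higher or lower, were 1 of 9 and 0 for fibroblast, 3 of 8 and 0 for endothelial, 4 of 8 and 0 for macrophage, 2 of 8 and 1 for smooth muscle, and 3 of 4 and 0 for erythroid genes. No marker of these lists was listed at 0 in a group, and the lowest was Cd163, a macrophage receptor, at 0.0542, 0.0931 and 2.60 FPKM. The part of cell composition in the members' values was not tested, and in such mixed RNA fewer cells of a type and less RNA per cell cannot be told apart.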

How the data were processed

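RNA sequencing of 3 groups was read from the deposited table of FPKM values, 1 per gene and group. TopHat, Cufflinks, Cuffdiff and build rn5 are named, without version or role, per the submitters' processing notes. How libraries were scaled is unknown, as is whether the 2 libraries of a title entered the test separately. The authors deposited a test statistic, used here as a score, and a p-value and q-value for 3 pairs of groups. The deposited q-values equal a Benjamini-Hochberg adjustment over 34896 tests of all pairs, with a largest difference of 5.22e-07.

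With 1 sample per group no test was run here. Log2 folds are plain ratios of the deposited FPKM, with no pseudocount, and an SE was obtained by dividing the size of a fold by the deposited statistic, which gives wider errors than the deposited p-values imply. Counts set beside a background use the rows the authors tested. The shares of receptor regions and motifs are exceptions, since their member side includes symbols that were not tested. Receptor regions come with a deposited signal height and a log2 ratio from the authors, per the file headers. The caller of these regions is unknown, and 6 columns of single ChIP samples were not used. Motifs were searched by exact letters. Summaries were made with Python 3.11.15 and pandas 2.3.3. Only the adjustment of p-values and the median log2 fold were checked on simulated data.

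Named members were drawn from those marked by the authors, those with an unadjusted p under 0.05, and the highest by control FPKM of each complex. The highest and lowest by 24 h fold of each complex, the 3 highest and 3 lowest at 1 h, and the tissue isoforms were also eligible. Members with a region within 1 kb were eligible too, and only some of them are named. Other core subunits, Ndufa11 and Ndufb4 of the accessory subunits, Sdha, Uqcrc1 and Atp5c1 were named after their values were seen. So were Cycs, Coq10b, Slc25a4, Ppargc1a, Tfam, Esrra and Esrrg of the other lists. The values of 1 complex I gene are not reported here, though it is in the counts and medians. The members and lists were chosen with earlier results of these data known.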

Additional observations from a re-analysis of the deposited data

How the results depend on the processing

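The median log2 fold of the members kept within 0.05 of its value under every alternative run: a pseudocount of 0.1 or 1, FPKM minimums, rescaling to the other genes, subunits only, and leaving out rows of shared locus. It ranged from −0.03 to 0.00 at 1 h, from −0.07 to −0.05 at 24 h, and from −0.09 to −0.05 at 24 h over 1 h. Rescaling moved all folds by 0.02, −0.01 and −0.03. With Ndufa4 moved to complex IV, the 24 h medians were −0.08 for complex I and 0.03 for complex IV, unchanged at this rounding. Counts depended on the threshold. Marked members at 24 h were 0 as deposited, 1 when q-values were adjusted within that comparison, which is Cox8b with a q-value of 0.0376, and 2 at an unadjusted p under 0.05. At 24 h over 1 h an unadjusted p gave 2 in place of 0. Past 1.5-fold at 24 h lay 1 member, in place of 6 past 0.32 on the log2 scale. That member was Cox8b, and Cox4i2 lay only just inside, at a ratio of 1.49999. The minimum of 100 FPKM was chosen after seeing the data. No paired analysis was possible because each group has 1 sample. Depth is unknown, so the precision of each fold rests on the authors' statistic alone.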
